A study of Mus musculus with 4 samples.

Results

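The genes described here are 10 lineage and complement genes of macrophages and microglia, *C1qa*, *C1qb*, *C1qc*, *Cx3cr1*, *Csf1r*, *Tyrobp*, *Trem2*, *Aif1*, *Fcer1g* and *P2ry12*, out of 24062 genes in the count table. They were chosen by name, and all 10 passed the low-count filter, as did 15762 genes in all. Their RNA was measured by RNA-seq in retinas dissected from E13.5 embryos of a mixed C57BL/6 129 background. There were 2 libraries from wildtype embryos and 2 from *Nrf1* f/f;Six3-Cre embryos, which the labels call Nrf1-CKO and which are called mutant here. In the mutant, both *Nrf1* alleles are floxed, and the Six3-Cre transgene deletes exon 4 of *Nrf1* in retinal progenitor cells, first in the central retina. Each library came from retinas pooled over several littermates, so the spread between replicates is the spread between pools, and whether the wildtype embryos carried Cre or a floxed allele is not given in the sources used here. Six3-Cre is active in progenitors of the neural retina, and macrophages and microglia come from another lineage, so the labels do not place the deletion in the cells that express these genes.

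Microglia are the resident macrophages of the central nervous system, the retina included. They derive from precursors of the yolk sac, enter the retina during embryonic development and take up dying cells. *Csf1r* encodes the receptor for the growth factors that keep macrophages alive, *Cx3cr1* the receptor for the neuronal chemokine fractalkine, *P2ry12* a receptor for ADP that guides microglial processes, and *Trem2* a receptor for lipids and cell debris. Tyrobp (also called DAP12) and the Fc receptor gamma chain Fcer1g are small membrane adaptors that pass signals of such receptors to kinases inside the cell. The products of *C1qa*, *C1qb* and *C1qc* assemble into C1q, the recognition part of the first complement component, and *Aif1* encodes Iba1, an actin-binding protein used to stain microglia.

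The libraries held 74577660 to 85933945 reads counted on genes. *Nrf1* had 9052 and 7789 reads in wildtype against 8594 and 8284 in mutant libraries, a log2 fold change of -0.03 ± 0.07 (SE). A count over the whole gene shows little of a deletion of a single exon, so *Nrf1* did not serve as a check of the genotype labels. The labelled tissue was checked with 10 genes of retinal progenitors, among them *Pax6*, whose summed level lay between 4914 and 5877 CPM in every library. Levels are given as CPM, read counts scaled to the library size and edgeR's TMM factors. Calls follow the study's thresholds, which are a 1.4-fold change and an adjusted p no higher than 0.2. The study applied them with the program Cuffdiff. Here they were applied in edgeR's quasi-likelihood test with Benjamini-Hochberg adjustment over all tested genes, so these calls are not those of the study. By this rule 12.8% of tested genes were called higher in the mutant and 8.04% lower, and the median log2 fold change of all tested genes was 0.00073.

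The upstream sequences are shown because most of these genes moved together and PU.1, the product of *Spi1*, is a known regulator of macrophage genes that binds purine-rich boxes. RefSeq windows on GRCm38.p6 were matched by symbol for 7 of the 10 genes, and the 250 bases before the RefSeq start were searched on both strands for the letters GAGGAA, a core of the PU.1 box, which read TTCCTC on the other strand. They occurred in 4 of the 7 windows, those of *C1qb*, *C1qc*, *Aif1* and *Trem2*, and in 23.3% of 32851 windows of all genes. The windows below run 5′ to 3′ on the strand of the gene, with these letters in capitals, and *Fcer1g* is shown as a window without them. They lie at chr4:136886201-136886450 on the minus strand for *C1qb*, chr17:48346151-48346400 on the plus strand for *Trem2*, chr17:35176053-35176302 on the minus strand for *Aif1* and chr1:171234350-171234599 on the minus strand for *Fcer1g*.
C1qb: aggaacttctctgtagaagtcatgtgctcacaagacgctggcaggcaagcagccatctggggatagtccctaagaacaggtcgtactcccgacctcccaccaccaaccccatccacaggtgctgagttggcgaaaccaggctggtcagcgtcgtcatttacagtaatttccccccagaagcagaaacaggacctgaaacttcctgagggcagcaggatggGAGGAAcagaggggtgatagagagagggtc
Trem2: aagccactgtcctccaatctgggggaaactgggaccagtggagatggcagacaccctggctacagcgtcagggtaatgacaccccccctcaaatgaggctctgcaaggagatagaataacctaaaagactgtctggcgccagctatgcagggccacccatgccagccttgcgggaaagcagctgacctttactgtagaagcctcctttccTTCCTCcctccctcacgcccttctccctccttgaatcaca
Aif1: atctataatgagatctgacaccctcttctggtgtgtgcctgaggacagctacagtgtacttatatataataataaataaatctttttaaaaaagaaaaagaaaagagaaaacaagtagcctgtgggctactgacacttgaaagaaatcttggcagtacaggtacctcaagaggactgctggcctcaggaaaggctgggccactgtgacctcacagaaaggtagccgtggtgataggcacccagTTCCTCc
Fcer1g: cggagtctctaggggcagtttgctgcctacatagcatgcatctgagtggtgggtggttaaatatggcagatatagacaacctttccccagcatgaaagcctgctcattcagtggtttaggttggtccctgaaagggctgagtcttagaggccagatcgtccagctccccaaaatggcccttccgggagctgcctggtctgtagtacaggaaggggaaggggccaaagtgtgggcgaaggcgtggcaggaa
The box began 30 bases before the RefSeq start in *C1qb*, where it is on the strand of the gene, and 40 bases before it in *Trem2*, where it is on the other strand. In *Aif1* it is also on the other strand and began 7 bases before the RefSeq start, which is inside the first exon as GENCODE draws it. GENCODE exons of any gene cover 16 bases of the *Aif1* and *Fcer1g* windows, 151 bases of the *C1qc* window and all 250 bases of the *Cx3cr1* and *P2ry12* windows, so these 5 windows are not wholly upstream of annotated exons. The *P2ry12* window lies beyond the GENCODE end of that gene, so the exons there are those of another gene. The letters TGCGCA, which are the same on both strands and are part of the palindrome that Nrf1 itself binds, were in none of the 7 windows and in 6.43% of all. These are matches of letters and not measured binding sites.

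Of the 10 genes, 9 were called higher in mutant retinas and none was called lower by edgeR, against 12.8% and 8.04% of all tested genes. None of the 10 was lower at an unadjusted p under 0.05, and DESeq2 called none lower. The 9 genes rose between 2.67-fold and 5.36-fold, and *P2ry12* was the exception. The median log2 fold change of the 10 was 1.82. For the same 9 genes the mutant libraries were both higher than either wildtype library, a pattern of 30.9% of all tested genes, while 31.6% had the opposite pattern and none of the 10 genes did. In a bulk library, more cells of a type and more RNA per cell cannot be told apart.

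**Figure D1:**
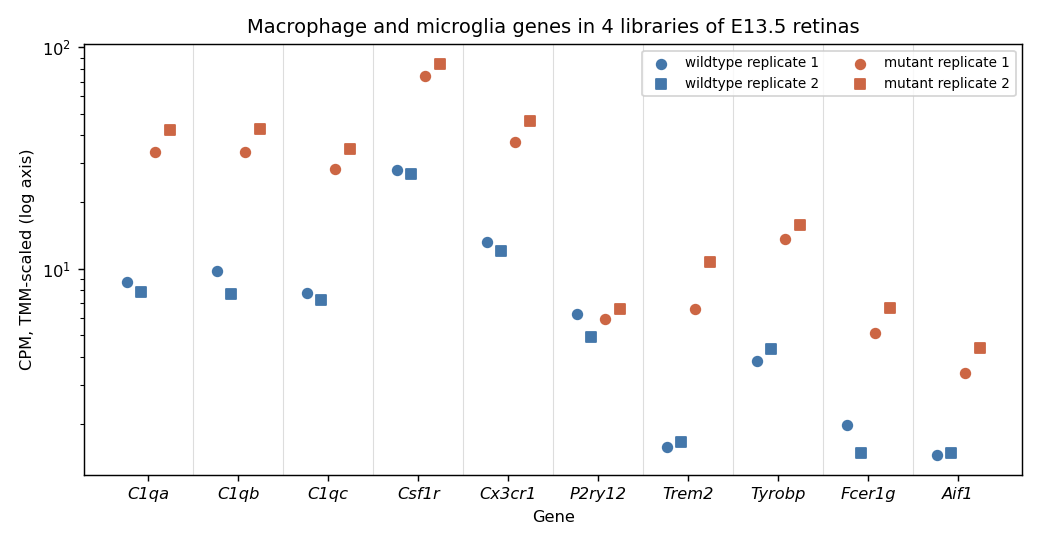
Level of each of the 10 genes in each library, in CPM after TMM scaling on a log axis, with wildtype libraries in blue and mutant libraries in orange. Both mutant points lie above both wildtype points for every gene except *P2ry12*.

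The 3 genes of C1q lie side by side on chromosome 4 of GRCm38, *C1qb* from 136880129 to 136886187, *C1qc* from 136889804 to 136893065 and *C1qa* from 136895917 to 136898803, all on the minus strand. *C1qa*, the A chain, had 762 and 584 reads in wildtype against 2796 and 3486 in mutant libraries. Its level rose from 8.29 ± 0.585 to 37.9 ± 6.00 CPM (SD, n = 2), a log2 fold change of 2.19 ± 0.13 (SE, edgeR adjusted p = 7.02e-05). *C1qb*, the B chain, had 853 and 570 reads in wildtype against 2790 and 3550 in mutant libraries, a log2 fold change of 2.13 ± 0.16 (SE, edgeR adjusted p = 9.88e-05). *C1qc*, the C chain, had 681 and 537 reads in wildtype against 2334 and 2889 in mutant libraries, a log2 fold change of 2.07 ± 0.13 (SE, edgeR adjusted p = 7.02e-05). In each of the 3 genes every mutant library was more than 3 times as high as every wildtype library. The chains kept nearly the same proportions to each other, with between 0.976 and 1.12 reads of *C1qb* and between 0.829 and 0.920 reads of *C1qc* for each read of *C1qa* in the libraries. The log2 fold changes of the 3 genes were within 0.12 of each other, less than the standard error of any of them.

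*Csf1r*, on chromosome 18 from 61100598 to 61132149, was the most abundant of the 10 genes in reads. It had 2452 and 1980 reads in wildtype against 6138 and 6992 in mutant libraries, which is 27.3 ± 0.922 and 79.2 ± 7.51 CPM (SD, n = 2). The log2 fold change was 1.53 ± 0.09 (SE, edgeR adjusted p = 7.02e-05). Its exons share 873 bp with those of *Hmgxb3* on the other strand, where reads of both genes are hard to assign. *Cx3cr1*, on chromosome 9 from 119901616 to 120069879, had 1153 and 894 reads in wildtype against 3098 and 3840 in mutant libraries, a log2 fold change of 1.73 ± 0.13 (SE, edgeR adjusted p = 9.88e-05). The annotated span of *Cx3cr1* overlaps other genes, among them *Wdr48* and *Csrnp1*. Its exons share 78 bp with those of *Gm33858* on the other strand. The study picked *Cx3cr1* for quantitative PCR from the most changed genes of these same libraries, so its value is not independent of that choice. *Trem2*, on chromosome 17 from 48346401 to 48354147, had the highest fold change of the 10. Its reads numbered 137 and 123 in wildtype against 549 and 884 in mutant libraries, and the level rose from 1.61 ± 0.0665 to 8.65 ± 2.88 CPM (SD, n = 2). The log2 fold change was 2.42 ± 0.26 (SE, edgeR adjusted p = 0.000315). Relative to its level, the mutant pools differed more from each other in *Trem2* than in the other genes. For *Csf1r*, *Cx3cr1* and *Trem2*, no mutant library overlapped the wildtype libraries.

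Both adaptors rose. *Tyrobp*, on chromosome 7 from 30413760 to 30417585, had 334 and 322 reads in wildtype against 1138 and 1309 in mutant libraries, a log2 fold change of 1.86 ± 0.15 (SE, edgeR adjusted p = 0.000123). *Fcer1g*, on chromosome 1 from 171229572 to 171234365, had 172 and 109 reads in wildtype against 428 and 551 in mutant libraries, a log2 fold change of 1.78 ± 0.24 (SE, edgeR adjusted p = 0.00111). Relative to their level, the replicates of *Fcer1g* were farther apart than those of *Tyrobp*, but the genotypes did not overlap in either gene. For each read of its adaptor *Tyrobp*, *Trem2* had 0.410 and 0.382 reads in wildtype against 0.482 and 0.675 in mutant libraries. *Aif1*, on chromosome 17 from 35170991 to 35176068, had 126 and 109 reads in wildtype against 282 and 363 in mutant libraries. Its log2 fold change of 1.42 ± 0.26 (SE, edgeR adjusted p = 0.00472) was the lowest of the 9 called genes. On the normalized values that the authors deposited, all 9 called genes had smaller log2 differences and were still called with limma. These were 0.55 for *Aif1*, 0.78 for *Fcer1g*, 1.12 for *Trem2* and *Tyrobp*, and between 1.35 for *Csf1r* and 1.63 for *C1qa* in the other 5 genes.

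*P2ry12*, on chromosome 3 from 59216272 to 59262871, had 550 and 363 reads in wildtype against 492 and 545 in mutant libraries. In CPM, the wildtype libraries were at 6.28 and 4.89 and the mutant libraries at 5.92 and 6.59. The genotypes overlapped, since mutant replicate 1 lay between the wildtype libraries. The log2 fold change was 0.16 ± 0.18 (SE, edgeR adjusted p = 0.589), with a 95% interval from -0.25 to 0.58, or from 0.838-fold to 1.49-fold. Without wildtype replicate 2, the value was -0.0021. The interval ends below the intervals of the other 9 genes, the lowest of which, that of *Aif1*, starts at 0.83.

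**Figure D2:**
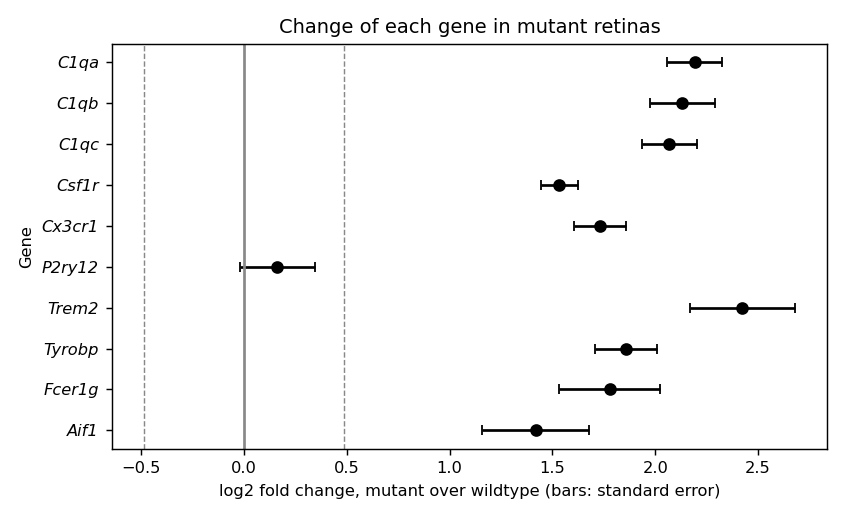
Log2 fold change of each gene in mutant over wildtype retinas from edgeR, with standard errors as bars and the fold change of 1.4 in either direction as dashed lines. The values run from 1.42 for *Aif1* to 2.42 for *Trem2*, with *P2ry12* apart at 0.16.

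The whole gene *P2ry12* lies inside *Med12l*, a neighbouring gene of a Mediator subunit that runs on the other strand from 59005825 to 59318682. Only 9 bp of exon are shared, but reads from unspliced *Med12l* RNA that fall on exons of *P2ry12* count for *P2ry12* unless strand is used, and whether the counting used strand is not given in the sources used here. *Med12l* had 5797 and 5106 reads in wildtype against 8566 and 7407 in mutant libraries, a log2 fold change of 0.51 ± 0.09 (SE, edgeR adjusted p = 0.0036), which was below 1.4-fold at 0.41 without mutant replicate 1 and at 0.47 on the authors' normalized values. For each read of *P2ry12* there were 10.5 and 14.1 reads of *Med12l* in wildtype against 17.4 and 13.6 in mutant libraries. The part of *Med12l* in the *P2ry12* counts was not tested. *P2ry13*, a related ADP receptor gene that was picked for this comparison after its values were seen, had 158 and 176 reads in wildtype against 361 and 414 in mutant libraries, a log2 fold change of 1.16 ± 0.24 (SE, edgeR adjusted p = 0.00795). Thus *P2ry12* had 3.48 and 2.06 reads for each read of *P2ry13* in wildtype against 1.36 and 1.32 in mutant libraries.

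The make-up of the group was compared by setting each gene against the summed CPM of the other 9 in the same library, which takes out what all of them share. Summed over the 10 genes, the level was 82.4 and 75.4 CPM in wildtype against 241 and 295 CPM in mutant libraries, 3.40 ± 0.482 times the wildtype mean (SD over the mutant libraries, n = 2). *P2ry12* was at 8.25% and 6.94% of the other 9 genes in wildtype against 2.52% and 2.28% in mutant libraries, a difference of -1.66 on the log2 scale. *Csf1r* was at 51.4% and 54.8% in wildtype against 44.1% and 40.1% in mutant libraries. *C1qa* differed in the other direction, at 11.8% and 11.7% in wildtype against 16.2% and 16.7% in mutant libraries. *Trem2* was at 1.93% and 2.25% in wildtype against 2.82% and 3.76% in mutant libraries. The share of *Cx3cr1* hardly differed, at 19.0% in both wildtype libraries against 18.3% and 18.7%, and *Tyrobp* and *Fcer1g* overlapped between the genotypes. With 2 libraries against 2, the smallest p of the exact two-sided permutation test is 0.333, and that was the value for *P2ry12*, so these differences in proportion are given as descriptions.

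**Figure D3:**
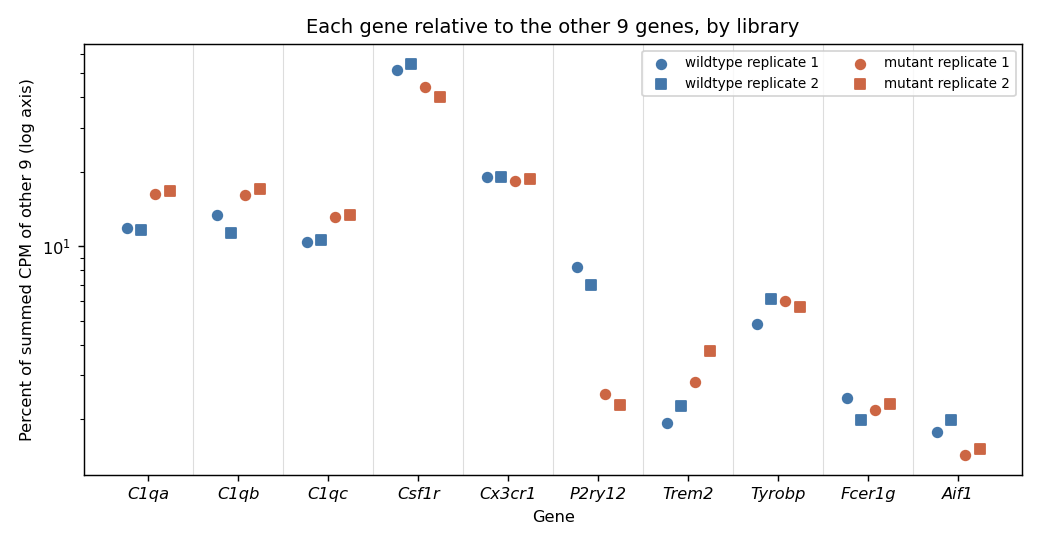
Each gene as a percentage of the summed CPM of the other 9 genes in the same library, on a log axis. *P2ry12* is lower in both mutant libraries, while *Trem2* and the C1q genes are higher and *Csf1r* and *Aif1* lower by smaller steps.

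Levels between genes were compared as RPKM, that is, CPM divided by the length of the merged exons in kilobases. Merged exons join every annotated form of a gene, so forms that are not made lower its RPKM. For *Trem2* the merged length was 4946 bp. Which forms were made was not tested, so the order depends on these lengths. In the mutant libraries the order of means was *C1qa*, *C1qb*, *Tyrobp*, *C1qc*, *Csf1r*, *Cx3cr1*, *Fcer1g*, *Aif1*, *P2ry12* and *Trem2*. *C1qa* and *C1qb*, at 36.4 ± 5.76 and 35.2 ± 6.06 RPKM (SD, n = 2), did not differ beyond their spread. *C1qc* and *Csf1r*, at 16.3 ± 2.50 and 13.7 ± 1.30, overlapped between libraries, with *C1qc* the higher within each mutant library, while in the wildtype *Csf1r* was the higher, at 4.74 ± 0.160 against 3.89 ± 0.196. *Tyrobp* was at 22.1 ± 2.25 RPKM, *Cx3cr1* at 9.29 ± 1.43 and *Fcer1g* at 6.76 ± 1.22. The lowest levels were those of *Aif1* at 2.54 ± 0.458, *P2ry12* at 2.46 ± 0.185 and *Trem2* at 1.75 ± 0.583. The first pair overlapped, and both *Trem2* libraries lay below them. In the wildtype libraries *C1qb* and *C1qa* were also the highest, at 8.01 ± 1.34 and 7.97 ± 0.562 RPKM, and *Trem2* the lowest at 0.326 ± 0.0134. *P2ry12* was seventh in the wildtype, at 2.19 ± 0.385 RPKM, above *Fcer1g* at 1.96 ± 0.400 by less than their spread.

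In all 10 genes mutant replicate 2 was higher than mutant replicate 1, and in 7 genes wildtype replicate 1 was higher than wildtype replicate 2. The gene outside the group that followed their mean pattern most closely was *Rac2*, a small GTPase of blood cells, with a Euclidean distance of 0.0702 between centred log2 CPM over the 4 libraries. It had 132 and 104 reads in wildtype against 426 and 520 in mutant libraries. The next were *Msx2*, *Hbegf*, *Cspg4* and *Thbs1*, at distances from 0.0726 to 0.106, out of 13421 genes with a mean of at least 1 CPM. *Cspg4* is a pericyte gene and *Thbs1* is widely expressed. *P2ry12*, a member of the group, was at 1.46. The distance is over 4 libraries only and shows no more than a like order of levels.

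Transcription factors of myeloid cells rose too. All 8 of the list were called higher, at a median log2 change of 1.36. *Spi1*, which encodes PU.1, had 80 and 70 reads in wildtype against 377 and 417 in mutant libraries, a log2 fold change of 2.37 ± 0.25 (SE, edgeR adjusted p = 0.000304). *Irf8*, a partner of PU.1 in macrophages, had 170 and 194 reads in wildtype against 535 and 736 in mutant libraries, a log2 fold change of 1.75. The values of *Runx1*, *Ikzf1* and *Cebpa* were 1.79, 1.37 and 1.35. *Irf5* was at 0.84 and *Sall1*, a microglial factor that is also made in other tissues, at 0.71. Both calls depended on single libraries, as *Irf5* was not called at 0.46 without wildtype replicate 1 and was at 1.37 without wildtype replicate 2, and *Sall1* not at 0.44 without mutant replicate 1. *Irf5* was also not called on the authors' normalized values.

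Of 12 other microglia genes, 9 were called higher. The highest was *Fcrls*, a microglial Fc receptor-like gene, with 435 and 400 reads in wildtype against 2079 and 2639 in mutant libraries and a log2 fold change of 2.46 ± 0.15 (SE, edgeR adjusted p = 7.02e-05). *P2ry6*, *Csf3r* and *Cd33* followed with 2.22, 2.06 and 1.94. For *Cd33*, with 60 and 21 reads in wildtype against 180 and 131 in mutant libraries, the value was 1.45 without wildtype replicate 2 and 2.72 without wildtype replicate 1. The 3 genes that were not called are named here after their values were seen. *Siglech*, a microglial lectin that signals through Tyrobp, had 107 and 58 reads in wildtype against 99 and 71 in mutant libraries, a log2 fold change of 0.03 ± 0.42 (SE). *Selplg* and *Slc2a5*, a selectin ligand and a fructose transporter, had values of 0.41 and -0.40. *Slc2a5* was called lower, at -0.81, without mutant replicate 2.

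Genes shared by leukocytes or myeloid cells were called higher in 16 of 18 cases, at a median log2 change of 1.75. Among them, *Cybb*, the catalytic subunit of the phagocyte oxidase, had 61 and 48 reads in wildtype against 436 and 400 in mutant libraries, a log2 fold change of 2.90. *Emr1*, the name used in the table for the gene of the macrophage antigen F4/80, was at 2.42, and *Vav1*, an exchange factor of blood cells, at 2.45. *Cd14* was at 2.92 on only 13 and 2 reads in wildtype against 65 and 50 in mutant libraries. Its value was 4.61 without wildtype replicate 1 and 2.22 without wildtype replicate 2. On the authors' normalized values *Cd14* was not called, at 0.43. Genes of macrophages outside the nervous system, such as those at its borders and vessels, rose as well, with 7 of 9 tested genes called higher and a median of 1.46. The scavenger receptor gene *Stab1* had 2681 and 2365 reads in wildtype against 9619 and 11690 in mutant libraries, a log2 fold change of 2.04 ± 0.11 (SE, edgeR adjusted p = 7.02e-05). *Ms4a7*, with 14 and 22 reads against 235 and 353, was at 3.97, and *Mrc1* and *F13a1* were at 1.56 and 1.46. On the authors' normalized values, 4 of the 9 genes were called. *Stab1* is also made by some endothelial cells, and the study lists primers for it, too, among those of its quantitative PCR.

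Of the 5 ligand genes, 4 were tested and all 4 were called higher. *Csf1*, a ligand of Csf1r, had 1929 and 1806 reads in wildtype against 2990 and 3766 in mutant libraries, a log2 fold change of 0.81 ± 0.12 (SE, edgeR adjusted p = 0.0018). The other ligand, *Il34*, was at or near 0, with 0 and 3 reads in wildtype against 0 and 5 in mutant libraries. *Cx3cl1*, which encodes the ligand of Cx3cr1, had 431 and 446 reads in wildtype against 1078 and 967 in mutant libraries, a log2 fold change of 1.17 ± 0.16 (SE, edgeR adjusted p = 0.000933). *Apoe*, a lipid carrier bound by Trem2 and itself made by macrophages, rose from 135 ± 0.161 to 376 ± 61.9 CPM (SD, n = 2), and *Tgfb1* rose from 2.14 ± 0.230 to 5.82 ± 0.213 CPM. The mutant libraries lay above the wildtype libraries for all 4.

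Below the receptors, 11 of 12 genes of kinases, phosphatases and linkers were called higher, at a median log2 change of 1.53. *Vav1*, already named above, was the highest of these at 2.45, followed by *Blnk*, *Pik3ap1* and *Btk* at 2.39, 2.27 and 2.01. *Blnk* and *Btk* had few reads, *Blnk* 30 and 11 in wildtype against 79 and 138 in mutant libraries, and *Btk* 25 and 18 against 82 and 96. *Blnk* was at 3.13 without wildtype replicate 1 and at 1.93 without wildtype replicate 2. *Btk* was not called on the authors' normalized values, at 0.40. Of 13 receptor genes that pair with Tyrobp or Fcer1g, 7 had enough reads to be tested and 5 were called higher, while 3 had at most 3 reads in every library. *Fcgr1* and *Fcgr3*, Fc receptors that need Fcer1g, were at 1.62 and 1.55, with 332 and 236 reads of *Fcgr3* in wildtype against 784 and 916 in mutant libraries. *Fcgr4* was at 1.90 and *Cd300lb* at 3.69 on few reads, with 4 and 0 reads of *Cd300lb* in wildtype against 18 and 37. *Cd300lb* was at 2.83 without wildtype replicate 2, and without wildtype replicate 1 it has no usable fold, since the remaining wildtype library is at 0. Without mutant replicate 2, neither was called, with values of 1.26 and 3.09, and the count fell to 2 genes. It was 3 without wildtype replicate 1, where *Fcgr4* was again not called, and 2 on the authors' normalized values, where neither was called.

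Complement genes outside C1q did not rise as a block. Of 19 tested, 9 were called higher and 10 were not called, at a median log2 change of 1.01, and 7 had values below 0. The proteases that complete the first component had few counted reads, with 6 and 1 reads of *C1ra* in wildtype against 12 and 5 in mutant libraries, and 3 and 1 against 18 and 2 reads of *C1s1*. *C1rb* was listed at 0 in every library. *C1ra* and *C1rb* are close copies of each other, and reads that matched both were not counted, so these numbers do not show how much RNA was present. The called genes with the largest changes were the receptors *C3ar1* and *Itgax* and the shared integrin chain *Itgb2*, at 2.88, 2.79 and 2.14, and *C2*, a protease of the classical pathway, at 1.92. *C3ar1*, the receptor for the C3a fragment, had 136 and 167 reads in wildtype against 1036 and 1273 in mutant libraries (SE 0.21, edgeR adjusted p = 9.88e-05). *C2* varied more, with 138 and 59 reads in wildtype against 311 and 439 in mutant libraries. Its value was 2.51 without wildtype replicate 1 and 1.53 without wildtype replicate 2.

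**Figure D4:**
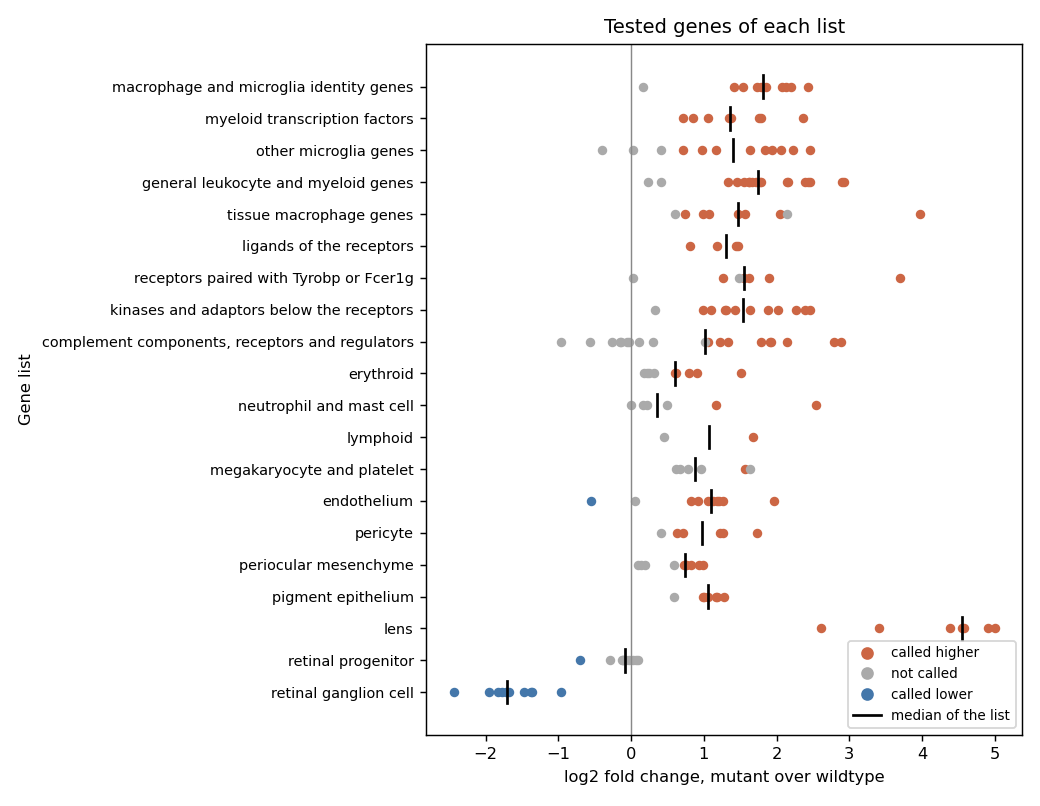
Log2 fold change of each tested gene in 20 gene lists, from edgeR, coloured by call, with the median of each list as a black bar. The macrophage lists centre between 1.01 and 1.82, retinal progenitor genes near 0, retinal ganglion cell genes at -1.70 and lens genes at 4.54.

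Over the lists of macrophage, receptor and complement genes without the 10 genes, 64 of 83 tested genes were called higher and none lower by edgeR, with a median of 1.46. At an unadjusted p under 0.05, 1 was lower, and DESeq2 called none lower. Without mutant replicate 2, 58 were called higher and 1, *Slc2a5*, lower. All lists were chosen with earlier results of these data known. Genes of other cell types moved too, and their part in the result was not tested. Of 7 tested lens genes, all were called higher, and their summed level was 124 and 346 CPM in wildtype against 7243 and 2990 CPM in mutant libraries, highest in mutant replicate 1, whereas the 10 macrophage and microglia genes were highest in mutant replicate 2. Pigment epithelium genes were called higher in 6 of 7 cases, from 218 and 155 to 399 and 420 CPM in sum. Pericyte genes were called higher in 5 of 6, from 44.9 and 39.9 to 82.0 and 88.6 CPM, and periocular mesenchyme genes in 6 of 10, from 191 and 133 to 291 and 251 CPM. No tested gene of these lists had a log2 fold change below 0. The count of periocular mesenchyme genes was 3 without wildtype replicate 2, and on the authors' normalized values it was 3 for these and 3 for the pericyte genes.

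Of 10 endothelial genes, 8 were called higher and 1, *Kdr*, lower at -0.55. *Kdr* is also made by retinal progenitors, and *Tek*, *Tie1* and *Cdh5* were at 1.96, 1.26 and 1.21. Their summed level was 293 and 295 CPM in wildtype against 330 and 327 CPM in mutant libraries, of which *Kdr* made up the largest part. The 12 erythroid genes summed to between 571 and 672 CPM in the wildtype and between 741 and 743 CPM in the mutant libraries, and 5 of 9 tested were called higher, a number that fell to 2 without wildtype replicate 1, wildtype replicate 2 or mutant replicate 2, to 3 without mutant replicate 1, and to 0 on the authors' normalized values. The embryonic globin gene *Hbb-y*, named after its values were seen, had 41387 and 41172 reads in wildtype against 50614 and 50760 in mutant libraries, a log2 fold change of 0.25. Other blood lineages were scarce. Lymphoid genes summed to 0.731 and 0.930 CPM in wildtype against 3.01 and 1.44 CPM in mutant libraries. Of 10, 2 were tested and 1, *Cd79b*, a B cell receptor chain, was called higher at 1.68, a count that was 0 without mutant replicate 1 and on the authors' normalized values, 2 when either wildtype library was left out, 3 with DESeq2 and 4 without mutant replicate 2. *Cd3e* and *Cd3g*, parts of the T cell receptor complex, had 8 and 31 reads in mutant replicate 1 and none in the other libraries. Neutrophil and mast cell genes summed to 5.33 and 5.54 CPM in wildtype against 10.8 and 9.80 CPM in mutant libraries, and 2 of 6 tested were called higher. *Mpo*, a gene of granulocyte precursors, had 107 and 17 reads against 374 and 337 and made up most of the rise of the sum, with a log2 fold change of 2.54 that was 4.22 without wildtype replicate 1 and 1.81 without wildtype replicate 2. *Prtn3*, another granule protease gene named after its values were seen, had 214 and 236 reads against 214 and 253. The count was 1 without wildtype replicate 1, without mutant replicate 1 and on the authors' normalized values. Megakaryocyte and platelet genes summed to 3.77 and 2.24 CPM in wildtype against 6.45 and 7.20 CPM in mutant libraries, and 1 of 6, *Itga2b*, was called higher at 1.56, a count that was 4 without wildtype replicate 1. In the neural retina, 1 of 10 progenitor genes was called, *Fgf15* at -0.70, and all 10 retinal ganglion cell genes were called lower, with a median of -1.70.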

How the data were processed

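RNA-seq was measured in 2 wildtype and 2 *Nrf1* f/f;Six3-Cre retina libraries. Reads were aligned by the authors with TopHat (TopHat2 2.7.2 in the submitters' processing notes) to mm10 and counted per gene with HTSeq. The authors deposited whole-number counts, which were used here. They also deposited normalized values on a log2 scale. The submitters' notes name DESeq and limma without saying for which step, and how these values were normalized is not stated further in the sources used here. HTSeq summary rows, 74.0% to 75.0% of all entries, were left out. Most were alignments that were not unique, so genes with close copies lose reads.

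Counts were filtered with filterByExpr (minimum count 10), scaled with TMM (factors 0.992 to 1.02) and tested in edgeR 4.0.16 (R 4.3.3) by quasi-likelihood. The tests were checked on simulated counts. Standard errors were derived from F statistics, and with 2 pools per genotype they and the intervals are rough. Replicates differed by more than sampling noise (chi-square per gene 46.7 and 58.8). Alternatives used DESeq2 1.42.0, limma 3.58.1, other scalings and filters, a replicate block, and each library left out.

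Named genes are the 10 genes, the transcription factor, ligand, C1r and C1s genes, up to 4 called genes per list and direction, and the 5 genes of most similar pattern. Other names were chosen after their values were seen, and the 10 genes and all lists were chosen with earlier results of these data known. Positions and merged exons come from GENCODE on GRCm38 (mm10). The symbol *Adgre1* was matched to its older symbol *Emr1*. Values of some genes of the lists are not reported here.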

Additional observations from a re-analysis of the deposited data

How the results depend on the processing

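All 9 genes called higher kept this call, and none of the 10 genes was called lower, under every alternative run, which for the counts included an adjusted p of at most 0.05 and a test of the fold change against 1.4 (glmTreat). *P2ry12* was called under none of them, and its log2 fold change ranged from -0.0021 to 0.36 when single libraries were dropped. The summed level of the 10 genes in the mutant was then 3.06 to 3.74 times wildtype. Over all tested genes, 2024 were called higher and 1268 lower. These numbers were 945 and 723 on the deposited normalized values with limma, and 754 and 523 with glmTreat. Among the other macrophage, receptor and complement genes, 0 or 1 were called lower when single libraries were dropped, the 1 without mutant replicate 2. Of the values of other named genes under the alternatives, 41 lost the call, and 1 changed sign, the log2 fold change of *Nrf1*, at 0.0060 with upper-quartile scaling. With the replicate number as a block, 1970 genes were called higher and 1256 lower, and 9 of the 10 genes were called higher. Deviations of same-numbered libraries had a correlation of -0.0050 over the tested genes. Whether same-numbered pools were collected or prepared together is not given in the sources used here. Few reads limit *Aif1*, *Fcer1g*, *Trem2* and the less abundant genes of the lists.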
